A study of Mus musculus with 4 samples.

Results

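The 10 genes described here arm the colonic surface against bacteria: Reg3b, Reg3g, Saa1, Saa3, Lcn2, Pigr, Nos2, Duox2, Duoxa2 and Lypd8. They were taken by name from a table of 21631 protein-coding genes (chromosome Y left out), which held all 10. For each gene, the summits of Fos signal inside its span or within 50 kb of it were collected. Fos was profiled by CUT&Tag, in which an antibody steers the transposase Tn5 to cut the DNA around a bound protein, in scraped colonic epithelium of wild-type (WT) mice. There were 4 libraries, 2 of healthy controls and 2 of mice that had recovered from colitis, with 1 batch label for all. The records give EDTA (4 mM, 30 minutes) and 10% fetal bovine serum for all 4. The recovered mice had drunk dextran sodium sulfate (DSS, 1 to 1.5%), an agent that injures the epithelium, in 3 cycles of 7 days on and 10 days off, and were taken 22 days after the last cycle. Nothing used here gives the age of the mice.

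The values came from 1 peak list for the series, which names no library. Which libraries entered it is not stated, so healthy and recovered colon could not be compared. No value has a replicate error. The list held 178981 summits, each with a fold enrichment over background and, read from it, the number of overlapping DNA fragments, which had a median of 27. Depth per library is unknown, and intervals on fragment numbers are exact 95% Poisson intervals for counting error only. A summit is called strong here when its fold was among the highest 10% of the list, at 38.0 or more (157 fragments). A boundary summit lay within 1000 bp of either end of a gene. A boundary summit was present at 10 of 10 epithelial markers such as Epcam and Cdh1, against 62% of protein-coding genes. It was present at 0 of 6 markers of B and plasma cells, 0 of 5 of endothelium and 1 of 6 of T cells. For myeloid cells it was 3 of 7, and for fibroblasts 3 of 6. Strong summits inside or within 50 kb separated the markers less, against 60.4% of protein-coding genes. They were at 10 of 10 for epithelium, 4 of 6 for B and plasma cells and 4 of 7 for myeloid cells. T cells had 3 of 6, endothelium 2 of 5 and fibroblasts 2 of 6. No library without the Fos antibody was used here, so Tn5 cutting of open chromatin was not measured for any gene below.

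Mucosal defence works in layers. Secreted lectins of the Reg3 family kill or repel bacteria near the epithelium, serum amyloid A proteins carry retinol and rise in the acute phase, and lipocalin 2 (Lcn2) starves bacteria by binding their iron-carrying siderophores. Nos2 and the dual oxidase Duox2, with its maturation factor Duoxa2, make nitric oxide and hydrogen peroxide. Pigr carries IgA across the epithelium, and Lypd8 is a surface protein that binds flagellated bacteria and keeps them off the colonic epithelium. Several of these genes are known targets of NF-kB, STAT3 and C/EBP factors. Fos acts in AP-1, a dimeric leucine zipper factor induced by growth signals, stress and injury.

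The defence genes fell into 3 kinds by where Fos signal lay. Lypd8 and Pigr had a strong summit at the gene itself, that of Lypd8 in a region wider than 3000 bp. Saa1, Saa3, Lcn2, Nos2, Duox2 and Duoxa2 had weaker or no signal at their ends, and their nearest strong site lay between 2587 bp and 31851 bp away, in a neighbouring gene or within 2562 bp of one. Reg3b and Reg3g had almost none, and their nearest strong site was 4184 kb away or farther. Boundary summits were present at 8 of 10 genes, all but Lcn2 and Reg3b, against a background of 62% of protein-coding genes. Counted from listed starts alone it was 7 of 9, against 62.2%. A strong boundary summit was present at 2 of 10, against 23.6%. All 10 had some summit in the window, against 86.3%, and 7 had one inside the gene, against 68.4%. Strong summits lay inside or within 50 kb of 8 of 10, all but Reg3b and Reg3g, against 60.4%. With 10 genes at a few shared loci, these shares are close enough to the background that nothing is read from them for the group.

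**Figure D1:**
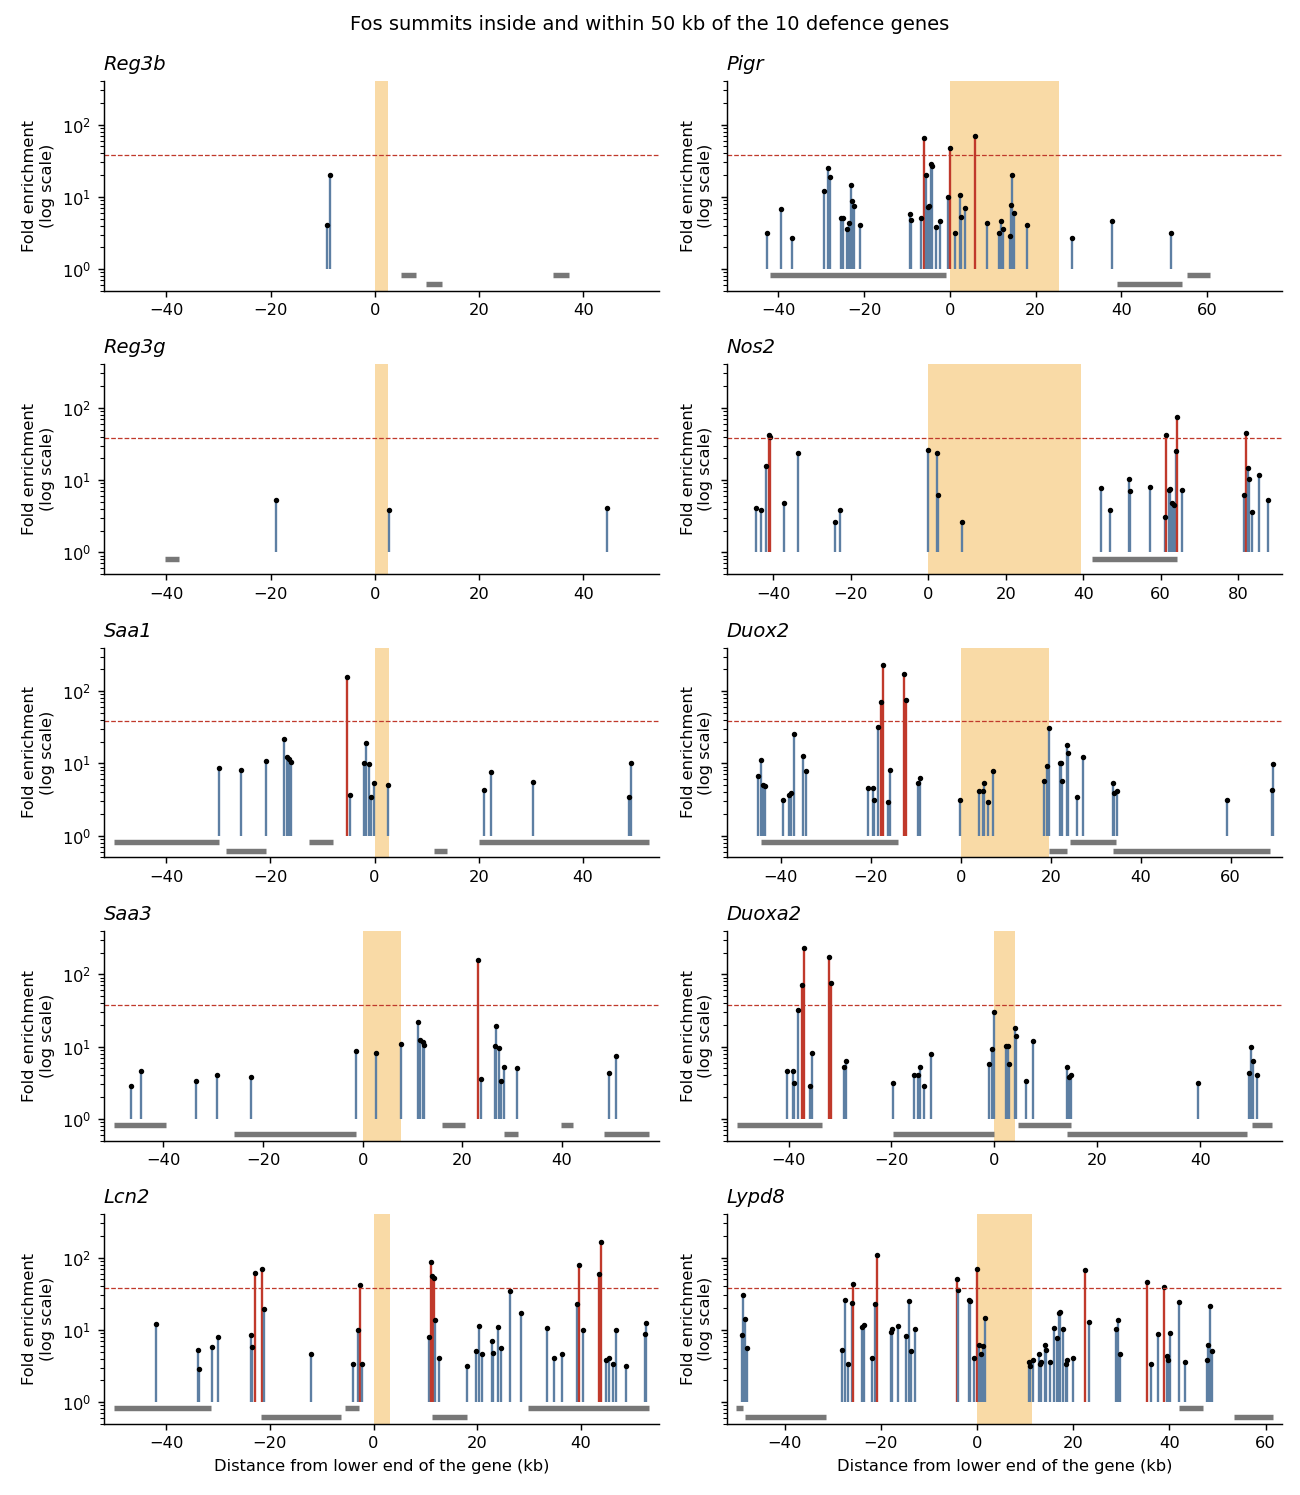
Fos summits at each defence gene. The x axis is the distance in kb from the lower-coordinate end of the gene, the y axis is fold enrichment on a log scale, the orange band is the gene, grey bars are neighbouring protein-coding genes, and red stems above the dashed line (fold 38.0) are strong summits. Reg3b and Reg3g hold 2 and 3 summits, none of them strong, while Lypd8 holds 66.

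The number of summits ranged from 2 at Reg3b to 66 at Lypd8, with a median of 35 per gene, against 16 (interquartile range 5 to 29) over all protein-coding genes. Scaled to the width of the window, the median was 29.5 summits per 100 kb against 11.1. Lypd8 was above 97.7% of protein-coding genes in summit number, Lcn2 (46 summits) above 90.7%, and Pigr and Duox2 (44 each) above 89.4%. Duoxa2 had 36, Nos2 34, Saa3 22 and Saa1 20. Reg3g, with 3 summits, was above 20.0% and Reg3b, with 2, above 17.3%. Counts of 3 or fewer were found at 22.3% of protein-coding genes. These counts are not independent. Duox2 and Duoxa2 lie 160 bp apart and shared 34 summits (77.3% of those of Duox2 and 94.4% of those of Duoxa2), and Saa1 and Saa3 shared 17 (85% and 77.3%). In all there were 266 distinct summits, of which 29 were strong (10.9%, against 10.0% of the whole list).

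**Figure D2:**
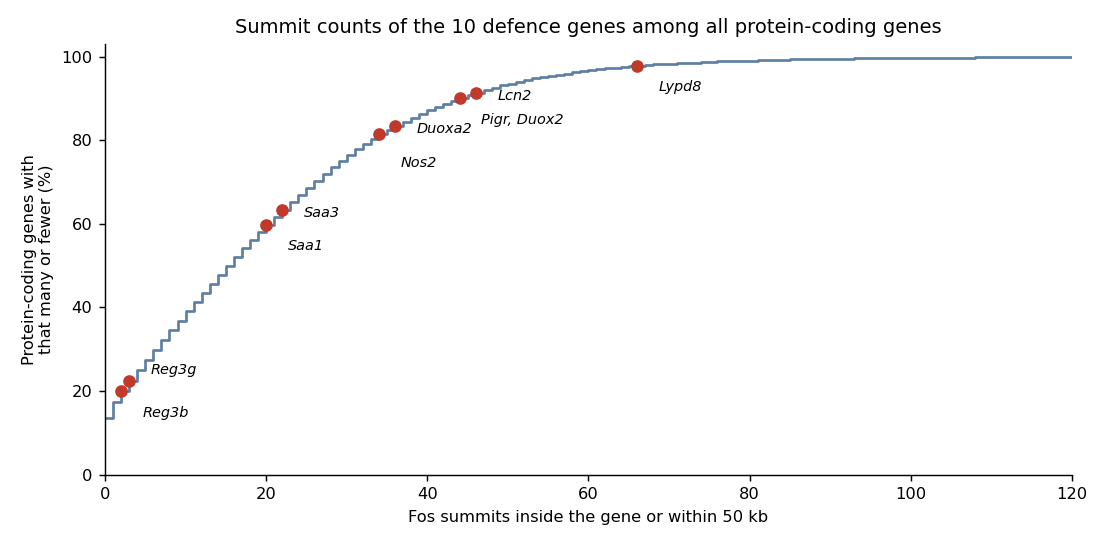
Summit counts of the defence genes among all protein-coding genes. The line gives the percentage of 21631 genes (y axis) with at most the number of summits on the x axis, inside the gene or within 50 kb, and red points mark the 10 genes. Reg3b and Reg3g stand at the low end with 2 and 3, and Lypd8 at the high end with 66.

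The strongest summit in the window lay at the gene's own ends in none of the 10 genes, against 18.9% of the protein-coding genes that had a summit in their window. In 1 of 10, Pigr, it lay inside the gene, and 32.2% of those genes had it inside or at an end. Of the 29 strong summits, 13 lay between genes (44.8%, against 31.8% of all strong summits). Another 8 lay at gene ends (27.6%, against 29.9%) and 8 in gene interiors (27.6%, against 38.3%). With 29 summits at a few loci, nothing is read from these shares. Of the 8 at gene ends, 2 were at defence genes (Pigr and Lypd8) and 6 at other genes only. Those in interiors were 3 in Slc25a25, 2 in Sord and 1 each in Fcamr, Lgals9 and Pigr. Assignment of any of these to a defence gene rests on distance alone.

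**Figure D3:**
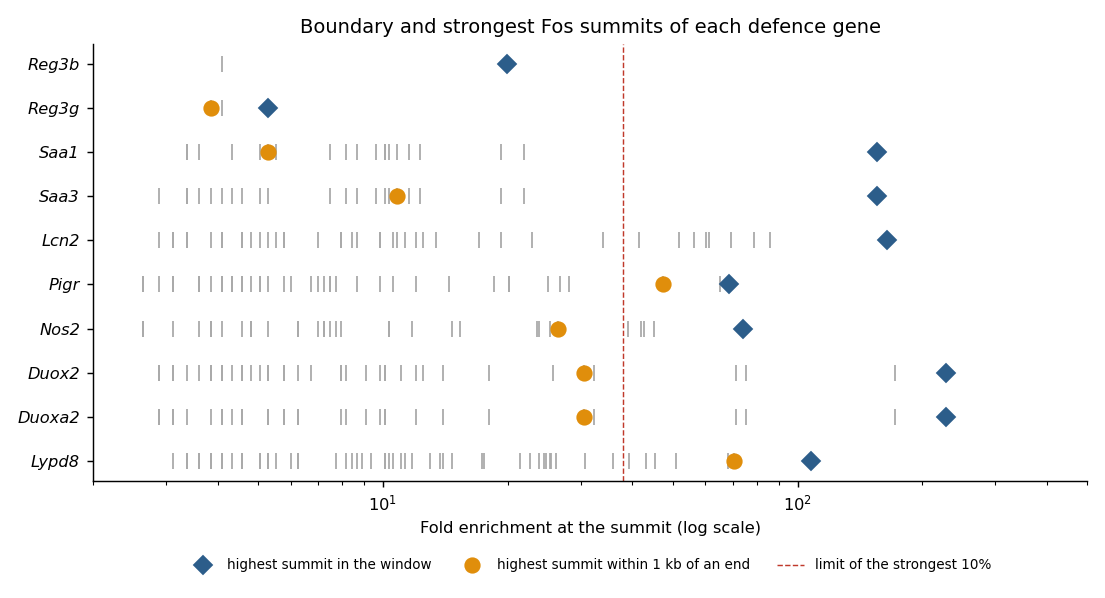
Strength of the summits of each gene. Grey ticks are all summits inside or within 50 kb, circles the highest within 1 kb of a gene end, diamonds the highest in the window, and the dashed line the limit of the strongest 10% (fold 38.0), on a log scale. Circles pass the line at Pigr and Lypd8 only, and Reg3b and Lcn2 have no circle.

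The promoter sequences (250 bases before to 50 after the listed start, RefSeq, GRCm38.p6) were searched on both strands for the AP-1 letters TGANTCA, the CREB/ATF letters TGACGTCA, the STAT letters TTCNNNGAA, the C/EBP letters TTGCNNAA and the NF-kB consensus. Of the 10 genes, 9 had an entry, Lypd8 with a pair of starts. Shares among 21045 promoters of protein-coding genes were 7.04% for the AP-1 letters, 2.26% for CREB/ATF, 7.76% for STAT, 10.3% for C/EBP and 4.86% for NF-kB. The sequences below belong to the genes the results turn on, 5′ to 3′ along the gene, with matches in capitals. The first pair are the Reg3 genes, which run over 29 identical letters beginning 20 bases before both starts.
Reg3b (chr6:78370635-78370934, plus strand): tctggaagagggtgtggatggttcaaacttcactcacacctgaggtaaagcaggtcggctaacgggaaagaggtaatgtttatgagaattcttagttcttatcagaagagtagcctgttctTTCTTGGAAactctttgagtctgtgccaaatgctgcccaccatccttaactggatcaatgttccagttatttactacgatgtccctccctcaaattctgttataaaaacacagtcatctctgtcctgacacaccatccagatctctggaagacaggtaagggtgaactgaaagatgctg
Reg3g (chr6:78468825-78469124, minus strand): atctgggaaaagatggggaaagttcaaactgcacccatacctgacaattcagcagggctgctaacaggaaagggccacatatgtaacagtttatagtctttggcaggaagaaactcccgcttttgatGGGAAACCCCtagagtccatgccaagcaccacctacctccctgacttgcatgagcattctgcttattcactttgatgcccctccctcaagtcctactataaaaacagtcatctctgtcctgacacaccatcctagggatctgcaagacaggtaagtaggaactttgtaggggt
The capitals are a STAT match in Reg3b, 129 bases before the start, and an NF-kB match in Reg3g, 123 bases before it. A match is a run of letters and not a measured binding site.

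The Reg3 lectin genes lay in the emptiest stretch. Reg3b, on chromosome 6 from 78370885 to 78373466, had no summit inside it or at its ends. Its window held 2 summits of 1 region, 9244 bp and 8537 bp upstream, with folds of 4.09 (16 fragments) and 20.0 (82 fragments, 65.2 to 102). Reg3g, the lectin that binds peptidoglycan, on the same chromosome from 78466269 to 78468874, had 3 lone summits of 4.09, 5.29 and 3.85-fold. The last, with 15 fragments, lay 164 bp upstream of its start and inside the printed promoter, 45 bp from the NF-kB match. It was the weakest highest boundary summit of the 8 genes that had one, and with −log10 q of at least 5 it was no longer in the list.

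Between the upstream summit of Reg3b and the next one, 85.0 kb held no summit at all. That stretch contains Reg3b, Reg3d, Reg3a, Reg2 and Reg1, members of the same family. Of the gaps between neighbouring summits, 4933 (2.76%) were at least as long. Such gaps are few in number but held 56.0% of the bases. The nearest strong summit lay 4279 kb from Reg3b and 4184 kb from Reg3g, and only 70 and 79 of the 21631 protein-coding genes (0.324% and 0.365%) were as far from one. That summit had a fold of 43.8 (181 fragments) at an end of Pole4, a subunit of DNA polymerase epsilon, on chromosome 6 at 82652721. On the other side the nearest was at 73232341, 5139 kb below Reg3b and 10114 bp from Dnah6, with a fold of 80.3. The 9.42 Mb between them had 65 summits, 6.90 per Mb against 69.9 per Mb over the list, none above a fold of 35.4, and 5 of its 17 protein-coding genes had a boundary summit. The Reg genes are paralogs, and the sources used here do not say how reads that fit several copies were placed.

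The serum amyloid A genes shared 1 strong site that lay between them. Saa3 and Saa1 sit on the minus strand of chromosome 7, from 46711998 to 46719615 and from 46740497 to 46743181, with Saa4 between and Saa2 beyond. The summit at 46735165, in a region from 46734394 to 46735815, reached a fold of 155.4, or 645 fragments (596 to 697), and ranked 1096 in the list. It was 5332 bp past the downstream end of Saa1, 15550 bp from the upstream end of Saa3 and closest to Saa4, at 2562 bp. No other summit in either window was strong, and the next strong one on the Saa1 side lay 52651 bp from Saa1 at an end of Hps5, with a fold of 56.3 (233 fragments). Inside the windows the next highest folds were 21.9 (90 fragments), at 3463 bp from Saa3, and 19.2 (79 fragments), at 1653 bp from Saa1.

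At the Saa gene ends the signal was low. Saa1 had 3 boundary summits with folds of 3.37, 5.29 and 5.05, the last with 20 fragments and 128 bp upstream of the listed start. Saa3 had 1, with a fold of 10.8 (44 fragments), 117 bp outside the upper end of its span, and an interior summit of 8.18-fold. The listed start of Saa3 lies inside that span, and the boundary summit is 4056 bp upstream of it. Fold at the shared site was thus far above that at any Saa1 or Saa3 end, with intervals that do not overlap. The Saa1 promoter is printed for its C/EBP match, which begins 182 bases before the start and lies 51 bp from the summit.
Saa1 (chr7:46742931-46743230, minus strand): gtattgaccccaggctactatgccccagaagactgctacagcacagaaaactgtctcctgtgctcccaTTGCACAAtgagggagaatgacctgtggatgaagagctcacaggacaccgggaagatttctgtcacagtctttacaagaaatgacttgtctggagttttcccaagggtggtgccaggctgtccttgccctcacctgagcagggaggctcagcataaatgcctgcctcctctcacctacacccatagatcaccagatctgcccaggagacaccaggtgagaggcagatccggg
Saa3 also had a C/EBP match, 99 bases before its listed start and 995 bp from the nearest summit. Saa2 and Saa4, the family members at the locus, had no boundary summit. Read placement among these paralogs is open to the same limit as at the Reg3 genes.

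Lcn2 was bare and its surroundings rich. The gene lies on chromosome 2 from 32384637 to 32387739 on the minus strand, and no summit fell inside it, the nearest being 2173 bp away. Of its 46 summits, 0 had Lcn2 as the nearest protein-coding gene. Yet 9 were strong, the most of any of the 10 genes when every summit of a region was counted. Several of the 9 shared a region, whereas each of the 7 strong summits of Lypd8 lay in its own. Counted by region, Lypd8 had more. The nearest strong one, with a fold of 41.4 (171 fragments), lay 2587 bp past the downstream end, at the start of 1110008P14Rik. Upstream, 3 strong summits with folds of 85.6, 56.3 and 51.7 lay 7973 to 8529 bp away in a region of 2535 bp at Ptges2, which encodes a prostaglandin E synthase. Another 3 were in Slc25a25, a mitochondrial carrier gene, at 36518, 40400 and 40761 bp, with folds of 78.7, 60.1 and 164.8. The last had 684 fragments (634 to 737). On the downstream side, 2 lay at Ciz1 and 1224 bp outside it, with folds of 69.0 and 61.3.

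The Lcn2 promoter is shown as one without a summit, and those of Ptges2 and of the nearer start in Slc25a25 as ones that hold a strong summit of the same window.
Lcn2 (chr2:32387690-32387989, minus strand): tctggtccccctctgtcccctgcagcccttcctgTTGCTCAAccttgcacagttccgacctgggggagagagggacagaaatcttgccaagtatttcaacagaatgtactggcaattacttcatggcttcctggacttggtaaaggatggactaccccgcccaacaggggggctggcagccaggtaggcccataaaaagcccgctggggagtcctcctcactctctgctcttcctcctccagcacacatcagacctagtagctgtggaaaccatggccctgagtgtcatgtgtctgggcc
Ptges2 (chr2:32395640-32395939, plus strand): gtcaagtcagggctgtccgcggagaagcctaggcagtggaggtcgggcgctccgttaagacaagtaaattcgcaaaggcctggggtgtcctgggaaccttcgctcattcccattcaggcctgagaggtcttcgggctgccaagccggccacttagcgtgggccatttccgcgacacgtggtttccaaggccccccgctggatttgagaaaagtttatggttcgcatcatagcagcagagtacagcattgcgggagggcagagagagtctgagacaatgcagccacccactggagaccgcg
Slc25a25 (chr2:32424017-32424316, minus strand): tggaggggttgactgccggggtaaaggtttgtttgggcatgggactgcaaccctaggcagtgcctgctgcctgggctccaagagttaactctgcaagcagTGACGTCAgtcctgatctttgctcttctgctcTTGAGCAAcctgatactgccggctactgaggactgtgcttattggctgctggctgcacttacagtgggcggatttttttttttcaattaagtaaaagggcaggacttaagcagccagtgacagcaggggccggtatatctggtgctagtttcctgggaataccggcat
Lcn2 had a C/EBP match 216 bases before its start, 5488 bp from any summit in its window. The Ptges2 sequence held none of the 5 motifs, although its summit (fold 85.6, 355 fragments) lay 178 bp before the start. In Slc25a25 the capitals are a CREB/ATF match, 44 bp from the summit of fold 78.7, and a C/EBP match, 76 bp from it. The strongest summit of the whole list stood outside the window of Lcn2. It lay on chromosome 2 at 32471174, 83435 bp upstream of Lcn2 and 15698 bp from Naif1, its nearest protein-coding gene, with a fold of 671.6 and 2791 fragments (2688 to 2897). No filter for stretches where reads are often misplaced was applied.

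Within 50 kb, the oxidase pair had strong sites on 1 side only. The nearest on the other side lay inside Shf, 57745 bp from Duoxa2 and 61.9 kb from Duox2, with a fold of 50.03 (207 fragments). Duox2 (chromosome 2, 122279246 to 122298740, minus strand) and Duoxa2 (122298900 to 122302885, plus strand) run away from each other. In the gap between them the summit at 122298834 reached a fold of 30.5, with 126 fragments (105 to 150). It lay 66 bp upstream of the listed start of Duoxa2 and 607 bp upstream of that of Duox2, and was the highest boundary summit of both. Under the Duox2 start itself, 139 bp upstream, the fold was 9.14, with 37 fragments (26.1 to 51.0). At the other end Duoxa2 had summits of 18.0 and 14.0-fold, and Duox2 had 1 of 3.13. Duox2 held 5 further summits in its interior, none above 7.94-fold.

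The strong sites of the pair lay beyond the downstream end of Duox2. At 12197 and 12569 bp from it, 2 summits of a region between Duox2 and Sord had folds of 75.3 and 171.7 (713 fragments, 662 to 767). At 17386 bp, inside the sorbitol dehydrogenase gene Sord, the fold was 227.5 with 945 fragments (886 to 1007), and 71.2 at 17781 bp. The summit of 227.5-fold was the highest in any of the 10 windows, with an interval that does not overlap those of the strongest Saa and Lcn2 sites, and ranked 281 in the list. From Duoxa2 the same sites were 31851 to 37435 bp away. With windows of 20 kb, the highest fold of Duoxa2 dropped to 30.5, while that of Duox2 stayed at 227.5.

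The Duoxa2 promoter was the only one of the defence promoters with a match to TGANTCA, and is printed for that.
Duoxa2 (chr2:122298650-122298949, plus strand): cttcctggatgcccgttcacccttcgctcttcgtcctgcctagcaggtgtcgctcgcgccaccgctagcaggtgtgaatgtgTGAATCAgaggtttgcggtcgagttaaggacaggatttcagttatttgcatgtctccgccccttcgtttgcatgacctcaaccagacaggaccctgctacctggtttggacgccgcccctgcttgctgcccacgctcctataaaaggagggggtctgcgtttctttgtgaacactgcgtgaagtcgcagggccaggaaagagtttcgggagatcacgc
The match, TGAATCA, begins 168 bases before the start and lies 99 bp from the summit. The search allowed any base in the middle of TGANTCA, and in this match it is A. It did not separate matches by that base, so the letters alone do not make this an AP-1 site. Duoxa1 and Duox1, the paralogous pair beyond Duoxa2, had boundary summits of at most 18.0-fold (shared with the Duoxa2 end) and 9.86-fold.

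Nos2, the inducible nitric oxide synthase, lies on chromosome 11 from 78920787 to 78960226. A single boundary summit lay 9 bp outside its lower end, with a fold of 26.5 and 109 fragments (89.5 to 131). A summit 2157 bp into the gene had 23.8 (98 fragments), and 2 others in the interior had 6.25 and 2.65. The next 35.8 kb, which cover most of the gene and its upper end, held no summit. Of 5 strong summits in the window, the highest, with a fold of 73.8 (306 fragments, 273 to 342), was 24842 bp past the upper end and 144 bp before the start of Lgals9, the galectin 9 gene next door. Folds of 42.6 inside Lgals9, 45.0 at 42484 bp, and 41.9 and 39.0 at 41199 and 40791 bp on the lower side completed them. Without regions wider than 3000 bp the highest fold fell to 45.0, and with windows of 20 kb to 26.5, the boundary summit.

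Pigr had strong signal at its start, inside it and upstream. On chromosome 1 from 130826684 to 130852249, plus strand, the summit at 130826749, 65 bp downstream of the start, reached a fold of 47.4, with 196 fragments (170 to 225). At 5804 bp into the gene a summit reached 68.6 (284 fragments, 252 to 319), the highest in the window. At 6100 bp upstream, inside Fcamr, the gene of another Fc receptor for IgA and IgM, the fold was 64.9 (269 fragments, 238 to 303). The latter intervals overlap, and both lie above that of the start summit. Of the 44 summits, 15 were inside Pigr, more than in any other of the 10 genes, and 16 had Pigr as the nearest gene. The other interior summits had folds of at most 20.2. The promoter is printed because the start summit lies just past its last base.
Pigr (chr1:130826434-130826733, plus strand): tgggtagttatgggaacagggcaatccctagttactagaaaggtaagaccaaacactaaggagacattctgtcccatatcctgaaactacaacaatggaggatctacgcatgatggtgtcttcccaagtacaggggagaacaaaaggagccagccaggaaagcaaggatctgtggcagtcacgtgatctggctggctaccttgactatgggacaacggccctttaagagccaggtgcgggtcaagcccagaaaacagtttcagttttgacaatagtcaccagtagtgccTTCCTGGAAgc
The capitals are a STAT match that begins 39 bases after the start and lies 22 bp from that summit.

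Lypd8 had the most summits of the 10 genes when every summit of a region was counted. On chromosome 11 from 58379032 to 58390541, plus strand, it had 66 summits in 25 regions, 59.2 per 100 kb, a density above 98.9% of protein-coding genes. With 1 summit per region, Lypd8 and Lcn2 had 25 each, or 22.4 per 100 kb at Lypd8 and 24.2 at Lcn2, and with windows of 100 kb Lypd8 had 74 and Lcn2 85. Lypd8 was the nearest gene for 33 of them, the most of the 10. The summit 53 bp before its first listed start reached a fold of 70.2, with 291 fragments (259 to 326), in a region of 4910 bp that runs across the start. Without regions wider than 3000 bp that summit was gone, and the highest boundary summit of Lypd8 had a fold of 3.85 (15 fragments). With all regions it was the strongest boundary summit among the 10 genes, where the median over the 8 with one was 28.5. Of 7 strong summits, the highest lay 20696 bp upstream between genes, with a fold of 107.5 (446 fragments, 406 to 489). Closer by, a summit 4153 bp upstream had 51.0, and 10931 bp past the downstream end there was one of 68.1 (282 fragments). The others, with 43.1, 45.5 and 39.2, were 23897 to 27391 bp from the gene. Inside the gene, 6 summits had folds from 3.13 to 14.7, the highest with 60 fragments and 144 bp past the second listed start.
Lypd8 (chr11:58378782-58379081, plus strand): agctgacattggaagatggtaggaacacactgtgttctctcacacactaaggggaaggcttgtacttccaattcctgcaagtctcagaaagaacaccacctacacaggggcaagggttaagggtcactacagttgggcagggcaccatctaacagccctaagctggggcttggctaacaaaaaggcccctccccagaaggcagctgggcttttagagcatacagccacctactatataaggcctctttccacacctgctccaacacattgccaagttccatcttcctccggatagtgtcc
This sequence, shown because it holds the strongest promoter summit of the group, had no match to any of the 5 motifs, and neither had the promoter at the second listed start.

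**Figure D4:**
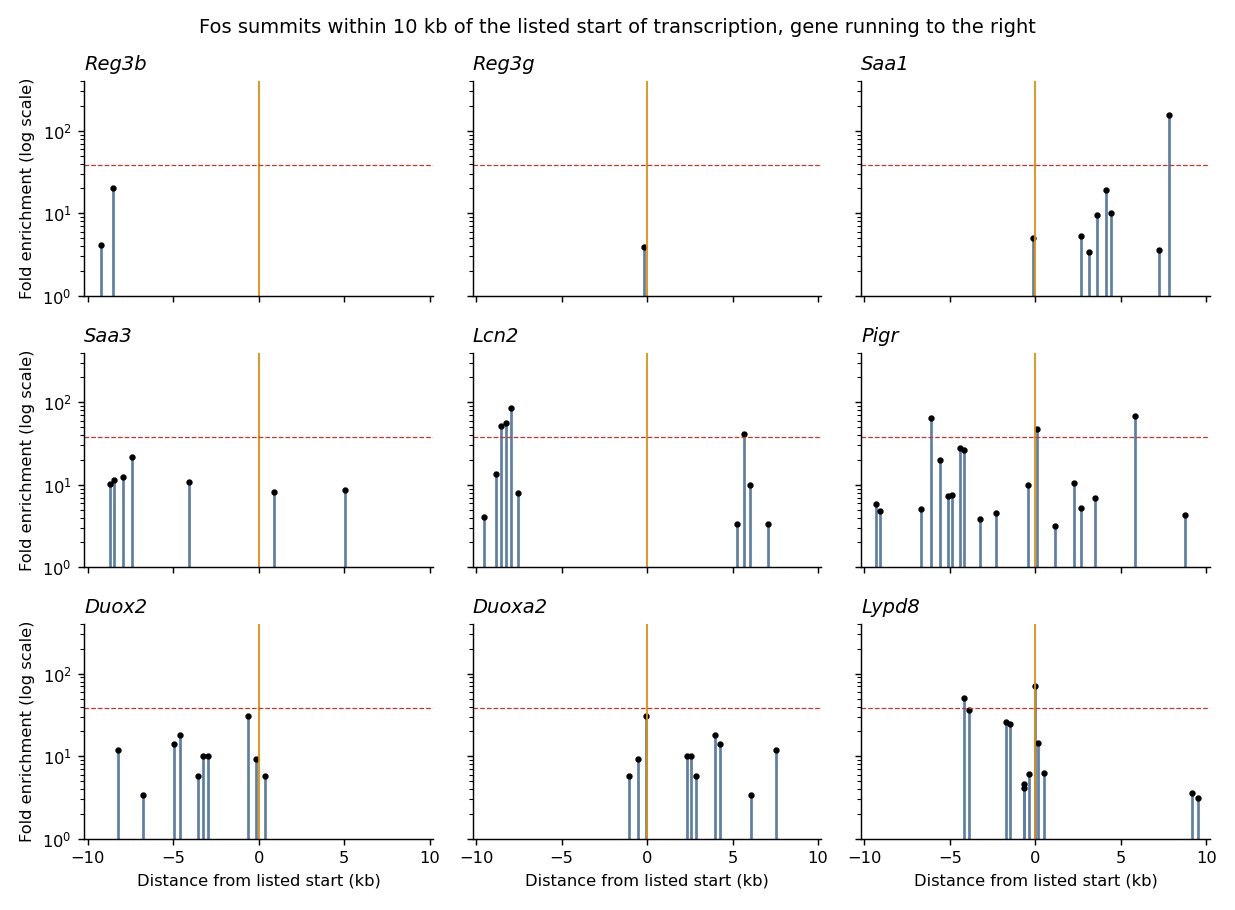
Summits within 10 kb of the listed start of transcription for the 9 genes with one, drawn with the gene running to the right. The x axis is the distance from the start in kb, the y axis fold enrichment on a log scale, and the dashed line marks fold 38.0. Lypd8 and Pigr have a stem above the line at the start, and Reg3b and Lcn2 have none within 1 kb.

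Inside the 300-base promoter windows, 5 of the 9 genes had a summit (Duox2, Duoxa2, Lypd8, Reg3g and Saa1), against 45.8% of 17274 protein-coding genes with an entry. Their folds in order were 9.14, 30.5, 70.2, 3.85 and 5.05. A match to TGANTCA was in 1 of these 5 promoters, that of Duoxa2, with A in the middle. Over all promoters, 5.50% of the 8913 with a summit held TGANTCA and 8.17% of the 12132 without one did. These shares are a description of the windows and were not tested. Matches were not split by their middle base, and promoters with and without a summit were not matched for base content. The shares therefore cannot show whether AP-1 sites are fewer under Fos summits.

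Other genes of the defence pathway were taken from 3 lists. Receptors and signal proteins that induce the defence genes had a boundary summit at 28 of 29 (96.6%, against 62% of protein-coding genes), all but Il1r1. They had a strong summit in the window at 26 of 29 (89.7%, against 60.4%) and a median of 25 summits, against 16. The subunit gene Nfkb1 had an interior fold of 242.5 (1007 fragments), Ifngr2 a site of 235.7-fold at 11896 bp, and Ifngr1 a boundary summit of 229.5-fold. Il22ra1, a receptor chain for the cytokine that induces Reg3 lectins, had 60 summits and a boundary fold of 104.9 (435 fragments), and Stat3, which acts after it, had 190.5 (791 fragments) at its end. The highest boundary fold among the defence genes themselves, 70.2 at Lypd8, was below both, and below that of Ifngr1. Other genes of the list were lower than Lypd8 at their own ends. Nfkb1, Ifngr2, Cebpb and Il10rb, a receptor chain gene, had boundary summits but no strong one. Il22ra1 and Stat3 were named after their values were seen, so no difference between the lists in boundary fold is read from them.

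Among 31 other antimicrobial genes, 18 had a boundary summit (58.1%, against 62%) and 14 a strong summit in the window (45.2%, against 60.4%), with a median of 15 summits against 16. Nothing is read from these untested shares. Lgals3, the galectin 3 gene, had the highest fold of the list, 468.8 (1948 fragments) at 2240 bp, and a boundary fold of 146.0. C3, the central complement component, followed with 140.2 at 37099 bp and Gsdmd, the pore-forming gasdermin D, with 133.7 at 17544 bp. The highest boundary folds of these were 2.65 and 11.8.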

How the data were processed

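Fos CUT&Tag was made from 4 libraries of mouse colonic epithelium. The submitters' processing notes name Bowtie2, MACS2 and the mm10 build, without versions or commands. The deposited file is 1 summit list for the series. Which libraries entered it, and how duplicates were handled, was not stated. The authors' fold is a linear ratio over background. The deposited −log10 p-value, −log10 q-value and score were used as filters or checks only.

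All folds were whole multiples of 0.2405 (tolerance 0.05 steps), as (fragments + 1) over (background + 1) gives with a background of 3.16 fragments. A Poisson −log10 p from those fragments matched the deposited one within 0.01 at 100% of 167414 summits, of 178981 in the list. For the strongest summits p was too small to compute, so this check did not cover them. Summit positions are 1-based. Gene spans came from RefSeq GRCm38.p6, the assembly mm10 names, and starts and promoters from its promoter table. Python 3.11.15, pandas 2.3.3, NumPy 2.4.6, SciPy 1.17.1 and matplotlib 3.10.9 were used. Window, boundary and distance counts, tested on simulated data, were right at 100% of 200 genes.

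No test was made, since the list has no value per library. The members, lists and window were chosen with earlier results of these data known. All 10 members are named. Of the other defence lists, the rule names the 3 genes with the highest fold and those without a boundary summit where 5 or fewer. Lypd3, Duoxa1 and Duox1 are those 3 for genes of the same families. Il22ra1, Stat3 and the other list genes named were chosen after their values were seen. Pla2g2a, Trbc1 and Trbc2 were not matched as protein-coding genes. Sequence at sites outside promoters was not used here. Alternatives were stricter q, 1 summit per region, no wide regions, and other windows, boundaries and strong limits.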

Additional observations from a re-analysis of the deposited data

How the results depend on the processing

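No paired analysis was possible because the summit list carries no value per library. Boundary summits were present at 6 to 8 of the 10 genes under every alternative run. Reg3b and Lcn2 lacked one in all of them, Reg3g also with −log10 q of at least 5, and Saa1 as well with at least 10. From the listed start alone it was 7 of 9. Genes with a strong summit in the window were 8 in the main count, 6 with windows of 20 kb, and 5 with strong set at the strongest 1% in place of 10%. The median of 35 summits per gene became 20.5 with −log10 q of at least 10, 19.5 with 1 summit per region, 15.5 and 67 with windows of 20 kb and 100 kb, and 6 with only summits nearest to the gene. Fewer summits are counted in these settings, or more in the wider window, by construction. The median distance to the nearest strong summit was 13874 bp, against 23580 bp over all protein-coding genes. It was 14060 bp with 1 summit per region and 67691 bp for the strongest 1%. The value over all genes is for the main setting only. No matched median over all genes is given for the alternatives, in summit number or in distance. With fewer strong summits such a distance can only stay or grow. The highest fold of a gene left its counting interval for 4 of 10 genes with windows of 20 kb (Lcn2, Nos2, Duoxa2 and Lypd8), 3 with 100 kb (Saa1, Lcn2 and Pigr) and 1 without wide regions (Nos2). A strong boundary summit was present at 2 genes at each q limit and with 1 summit per region, but at 1, Pigr, without wide regions. Between 50 and 60 kb, strong summits lay at 50530 and 55894 bp from Pigr (folds 57.5 and 79.4), 52651 bp from Saa1 (56.3), 52748 and 53209 bp from Lcn2 (38.2 and 38.0), 55590 bp from Lypd8 (97.7) and 57745 bp from Duoxa2 (50.03). The last summits inside the windows of Pigr and Lypd8 had 3.13 and 8.42. Depth per library is unknown, and a gene with no summit may hold signal under the caller's limit, which was 10 fragments at the weakest summit.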

Other observations

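Family members of the defence genes at the same or other loci had 0 to 67 summits in their windows. Of 20 such genes, 10 had a boundary summit (50%, against 62% of protein-coding genes) and 12 a strong summit in the window (60%, against 60.4%), with a median of 26.5 summits against 16. Those beside a defence gene share its summits. Lypd3, a relative of Lypd8 expressed in squamous epithelium, had a site of 230.2-fold at 47967 bp, at an end of Zfp575, but a boundary fold of 5.53. Plaur, the urokinase receptor, had 171.5-fold at 1271 bp and a boundary fold of 138.3 (574 fragments), the highest of this list. Noxo1, the organiser of the colonic oxidase NOX1, had a boundary fold of 117.4 (487 fragments), whereas Nox1 itself had 6 summits and none at its ends. Nox4 had no summit in its window. The strongest summit in the window of Duoxa1 was the one of 227.5-fold inside Sord, at 41680 bp. In that of Duox1 it was the one of 171.7-fold between Duox2 and Sord, at 46333 bp.

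Other sites stood beyond 50 kb of the genes. A summit of 262.9-fold (1092 fragments) lay 90357 bp from Saa1 and 8736 bp from Ldha, the lactate dehydrogenase gene. One of 152.3-fold (632 fragments) lay 94621 bp upstream of Pigr, at an end of AA986860. Lypd8, with 66 summits nearby, was 1949 kb from the nearest summit of the strongest 1%, in Tom1l2.

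Among other antimicrobial genes, the lysozyme genes Lyz1 and Lyz2 had 1 and 2 summits in their windows, neither above 6.25-fold, and Mptx2 had 0. The resistin-like gene Retnlb had 4, up to 5.77-fold, and Ang4 had 5, up to 16.4-fold. Reg4, a Reg family gene on another chromosome than the Reg3 genes, had 50 summits and a highest fold of 58.2.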
